A study of Caenorhabditis elegans with 2 samples.

Results

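The insulin/IGF-1 pathway genes of Caenorhabditis elegans described here are 10 genes taken by symbol, out of 19973 protein-coding genes: daf-2, ist-1, age-1, daf-18, pdk-1, akt-1, akt-2, sgk-1, pptr-1 and daf-16. For each, every peak whose summit lay in the gene body or within 5 kb of it was collected from the authors' peak lists, and 26 of the 4293 peaks that passed the authors' irreproducible discovery rate (IDR) comparison lay there. The study mapped chromatin sites of an eGFP-tagged transcription factor with ChIP-seq, the sequencing of DNA that coprecipitates with a protein, in whole larvae of L4, the last larval stage, labelled as of mixed sex. The 2 libraries are biological replicates of 1 group, strain OP355 with the genotype unc-119(tm4063) III; wgIs355, in which wgIs355 is an integrated transgene whose promoter the labels do not give. The labels disagree on the tagged protein. The strain and antibody fields name mdl-1, which encodes a Mad-type partner of Max-like proteins, and a free-text line names ZK337.2.

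In the worm, insulin-like peptides act through the receptor DAF-2 and the phosphoinositide 3-kinase AGE-1, whose lipid product activates PDK-1 and, through it, the kinases AKT-1, AKT-2 and SGK-1. The AKT kinases phosphorylate the FOXO transcription factor DAF-16 and keep it out of the nucleus, and loss of the receptor lets DAF-16 act and extends lifespan. DAF-18 opposes AGE-1, IST-1 is an insulin receptor substrate homolog, and PPTR-1 is a regulatory subunit of protein phosphatase 2A that acts on AKT-1. mdl-1 is itself known as a gene that DAF-16 activates.

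Peaks of the tagged factor lay at 7 of the 10 genes and spread from the receptor to the FOXO effector. daf-16 had 11 IDR peaks, pptr-1 had 4, akt-1 had 3, and daf-2, pdk-1, akt-2 and ist-1 had 2 each. age-1, daf-18 and sgk-1 had none. Across all protein-coding genes, 36.3% had an IDR summit in the gene body or within 5 kb. The pathway genes are long, from 3941 bp for akt-1 to 46333 bp for daf-2, and of the protein-coding genes at least as long as akt-1, 46.0% had such a summit. The regions searched came to 230.7 kb and held 1.13 IDR peaks per 10 kb, against 0.428 per 10 kb of the nuclear genome. Without daf-16 the other 9 regions held 0.771 per 10 kb. Among the 7 genes with peaks, the region of daf-2 had the lowest density, 0.355 per 10 kb, below that of the genome. The region of daf-16 had the highest, 3.04. These are descriptions of a list of genes, with no test. Neither library's depth is known, because the lists hold peaks and no counts of reads.

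**Figure D1:**
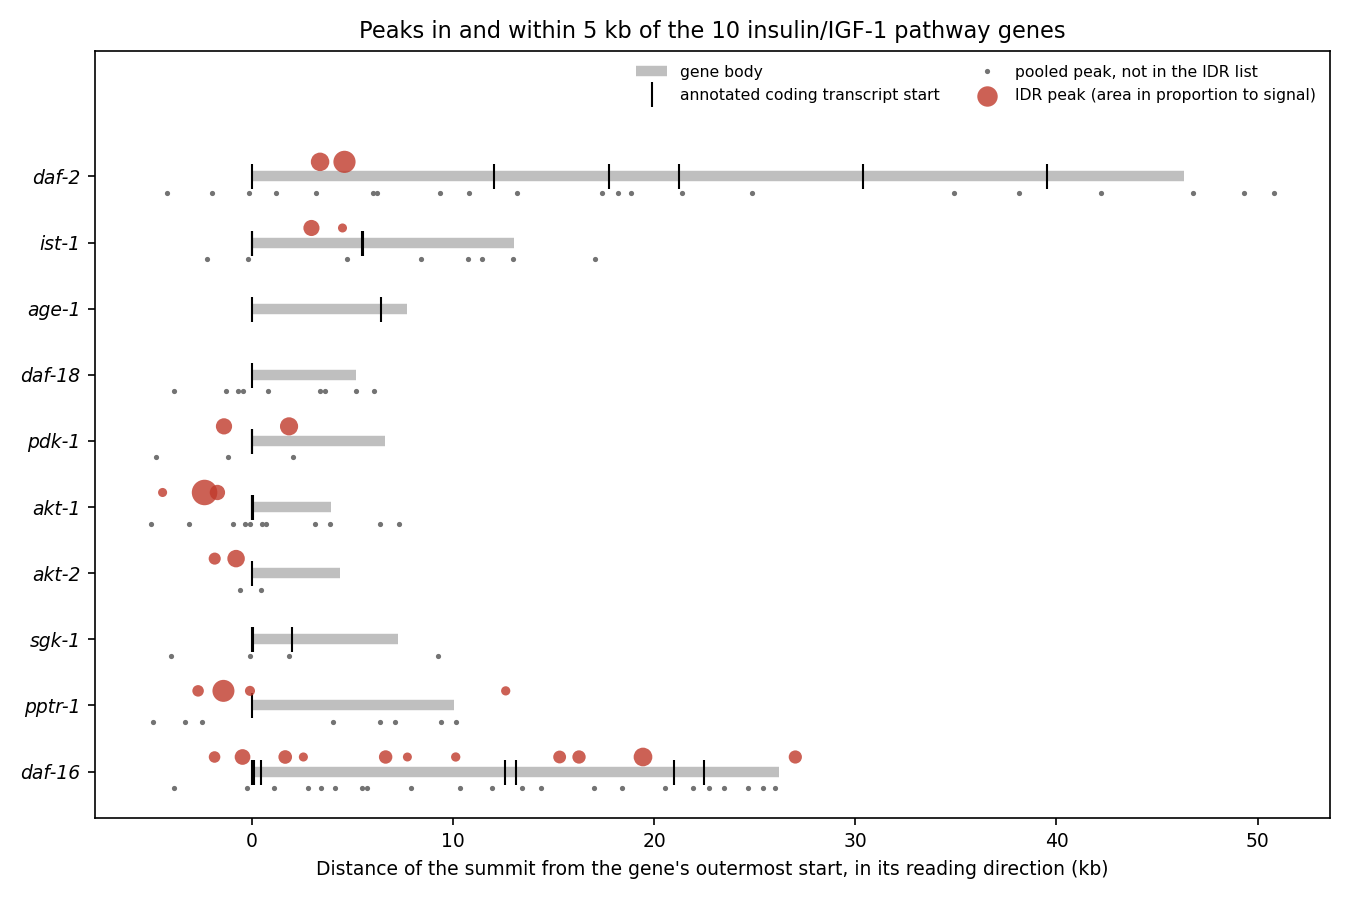
Each row is a pathway gene drawn to scale, with the distance from its outermost annotated start in kb on the horizontal axis. Red circles are IDR peaks with an area in proportion to their signal, grey dots are other peaks of the pooled list and black ticks are coding transcript starts. The 11 peaks of daf-16 run from 1839 bp upstream of its start to beyond its end, those of daf-2 lie near its outermost start, and the rows of age-1, daf-18 and sgk-1 have no red circle.

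The peaks were mostly away from the gene starts. The authors' signal value, the peak caller's own measure of enrichment on a scale that the sources used here do not give, had a median of 103 and a range of 46.6 to 375 over the 26 peaks. Over all IDR peaks the median was 75.0, with a range of 45.6 to 1411. These heights come from the pooled data, and at each of the 26 peaks both single-replicate values were lower than the pooled one. The medians of the lists were 9.91 in replicate 1, 9.79 in replicate 2 and 17.4 in the pooled list. Of the 26 peaks, 11 lay upstream of their gene, 13 in its introns and 2 downstream of it. A promoter window, which reached 1000 bp upstream and 200 bp into a protein-coding gene from its outermost start, held the summit of 3 of the 26 (11.5%), whereas it held 43.0% of all IDR summits. The search took in whole gene bodies, which for long genes are mostly outside such windows. Counted by gene, 3 of the 10 (exact Clopper-Pearson 95% interval 6.67 to 65.2%) had a summit in their window, namely akt-2, daf-16 and pptr-1. The interval is given as description only, because the genes are a chosen list and not a random draw. The share over all protein-coding genes was 10.9%, and over genes at least as long as akt-1 it was 14.0%. When each IDR peak was given to the nearest protein-coding gene start at any distance, 7 of the 10 received a peak. The share was 15.6% over protein-coding genes of every length, and it was not counted for genes as long as akt-1. The 4 genes added by that rule, daf-2, ist-1, pdk-1 and akt-1, had their nearest peaks 3405, 2976, 1370 and 1697 bp from the start.

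daf-2, the only insulin/IGF-1 type receptor gene among the 10 (WBGene00000898, chrIII:2994514-3040846, minus strand), had both of its IDR peaks in intronic sequence, on the side of its outermost start. The stronger, at chrIII:3036109-3036310, had its summit 4618 bp inside the gene and a signal of 284, rank 164 in the list, where replicates 1 and 2 gave 128 and 158. The other, at chrIII:3037385-3037498 and 3405 bp inside, had a signal of 197, where replicates 1 and 2 gave 111 and 98.0. Both summits also lay in an exon of linc-143, a long noncoding RNA annotated on the same strand. Its start was 102 bp from the weaker peak's summit and 1315 bp from the stronger one's. The remaining 21 pooled peaks at daf-2 were weaker than any IDR peak, and the one closest to the outermost start, 127 bp upstream, had a signal of 12.8. None of the other 5 coding transcript starts had an IDR summit within its window. The nearest was 7428 bp away.

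ist-1 (WBGene00002163, chrX:7126648-7139666, plus strand) had its stronger IDR peak in an intron, 2976 bp inside the gene at chrX:7129542-7129719. Its height was 149.9, where replicates 1 and 2 gave 62.3 and 83.8. A weak one of 47.1 lay at chrX:7130969-7131364, where replicates 1 and 2 gave 28.4 and 21.2. This weak peak was 4519 bp from the outermost start but 985 bp upstream of an inner coding start, that of transcript C54D1.3c. With the window laid on every annotated transcript start, ist-1 therefore joined the 3 genes above and 4 of the 10 had a summit, against 12.1% of all protein-coding genes.

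pdk-1 encodes the kinase that activates AKT proteins (WBGene00003965, chrX:1321344-1327986, plus strand). Its IDR peaks stood on either side of the start. The intronic peak at chrX:1323166-1323297, 1863 bp inside the gene, had a signal of 190, where replicates 1 and 2 gave 102 and 88.0. The upstream peak at chrX:1319907-1320021, 1370 bp from the start, had 152, where replicates 1 and 2 gave 90.2 and 61.4. Both lay outside the promoter window, and the nearest protein-coding start to each was that of pdk-1 itself.

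The strongest peak at any of the 10 genes was upstream of akt-1, one of the pair of worm AKT kinases (WBGene00000102, chrV:10248905-10252845, plus strand). At chrV:10246433-10246732, 2336 bp upstream, the signal was 375, rank 82 among the 4293, where replicates 1 and 2 gave 193 and 186. The nearest annotated start to that summit, at 688 bp, was that of the noncoding RNA C12D8.25. Another peak at chrV:10247098-10247294, 1697 bp upstream, had 136, where replicates 1 and 2 gave 59.2 and 78.3. Its summit fell in an exon of C12D8.25, a noncoding RNA on the opposite strand, 49 bp from the start of that RNA. The third, 4421 bp upstream with a signal of 47.5, was nearer to the start of C12D8.9 (1279 bp) than to that of akt-1. The promoter window of akt-1 held 3 pooled peaks, the highest with a signal of 36.8, below the lowest IDR signal of 45.6.

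akt-2, the other AKT kinase gene (WBGene00000103, chrX:14147700-14152070, plus strand), had the highest promoter-window signal of the 10 genes. The peak at chrX:14146733-14147128, 769 bp upstream, had a signal of 176, where replicates 1 and 2 gave 84.4 and 93.6. A weaker one 1831 bp upstream had 84.3, where replicates 1 and 2 gave 39.4 and 43.9. Both akt genes thus had all of their IDR peaks upstream and none in the gene body.

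pptr-1 (WBGene00012348, chrV:16357521-16367574, plus strand) had a strong upstream peak and a weak one at the start. The peak at chrV:16355963-16356250, 1397 bp upstream, had a signal of 279, rank 170, where replicates 1 and 2 gave 146 and 135. The peak over the start itself, 79 bp upstream at chrV:16357244-16357639, had 58.5, where replicates 1 and 2 gave 35.0 and 24.7. It is this weak peak that places pptr-1 among the promoter-window genes. The other 2 peaks had signals of 76.5 at 2657 bp upstream and 49.3 downstream of the gene. The downstream summit lies in an intron of the neighbour W08G11.3, 68 bp from the start of W08G11.6, a small nucleolar RNA gene.

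The sequences below are the 101 bases around the summits of the strongest peak of each of these 6 genes, the second peaks of daf-2, pdk-1, akt-2 and ist-1, and the promoter-window peak of pptr-1. They show which motifs stand at the peaks described above. They were read 5′ to 3′ on the strand of the gene from the RefSeq sequence of WBcel235 (ce11). Capitals mark CACGTG, the E-box known from Myc, Max and Mad proteins, GTAAACA, the DAF-16 binding element (TGTTTAC on the other strand), and the 7-mer GCGTCTC, which was chosen after these sequences had been read.
akt-1, 2336 bp upstream of the start, chrV:10246519-10246619, plus strand: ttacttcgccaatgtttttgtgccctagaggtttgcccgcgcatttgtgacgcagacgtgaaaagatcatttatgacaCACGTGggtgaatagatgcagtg
ist-1, 2976 bp downstream of the start, chrX:7129574-7129674, plus strand: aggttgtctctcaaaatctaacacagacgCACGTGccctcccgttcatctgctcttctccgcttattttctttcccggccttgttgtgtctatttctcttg
ist-1, 4519 bp downstream of the start, chrX:7131117-7131217, plus strand: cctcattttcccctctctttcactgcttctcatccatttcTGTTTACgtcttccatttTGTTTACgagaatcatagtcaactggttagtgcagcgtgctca
akt-2, 1831 bp upstream of the start, chrX:14145819-14145919, plus strand: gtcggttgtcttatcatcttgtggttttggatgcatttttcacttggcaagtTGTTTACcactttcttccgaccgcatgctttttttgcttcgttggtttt
akt-2, 769 bp upstream of the start, chrX:14146881-14146981, plus strand: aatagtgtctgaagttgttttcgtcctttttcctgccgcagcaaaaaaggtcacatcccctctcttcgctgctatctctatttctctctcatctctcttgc
daf-2, 4618 bp downstream of the start, chrIII:3036178-3036278, minus strand: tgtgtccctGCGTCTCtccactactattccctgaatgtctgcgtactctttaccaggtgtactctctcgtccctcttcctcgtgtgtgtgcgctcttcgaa
daf-2, 3405 bp downstream of the start, chrIII:3037391-3037491, minus strand: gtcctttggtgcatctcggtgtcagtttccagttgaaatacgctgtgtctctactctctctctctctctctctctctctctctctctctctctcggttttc
pdk-1, 1370 bp upstream of the start, chrX:1319924-1320024, plus strand: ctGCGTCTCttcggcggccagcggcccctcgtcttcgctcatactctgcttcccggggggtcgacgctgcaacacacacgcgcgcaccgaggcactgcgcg
pdk-1, 1863 bp downstream of the start, chrX:1323157-1323257, plus strand: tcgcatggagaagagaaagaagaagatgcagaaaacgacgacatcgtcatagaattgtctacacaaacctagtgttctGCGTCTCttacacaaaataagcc
pptr-1, 1397 bp upstream of the start, chrV:16356074-16356174, plus strand: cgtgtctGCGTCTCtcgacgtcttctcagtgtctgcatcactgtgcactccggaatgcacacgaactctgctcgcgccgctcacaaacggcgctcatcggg
pptr-1, 79 bp upstream of the start, chrV:16357392-16357492, plus strand: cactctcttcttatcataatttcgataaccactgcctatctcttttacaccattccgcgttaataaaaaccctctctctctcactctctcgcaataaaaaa

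The E-box had a similar share at the pathway peaks and in the list at large. CACGTG, a palindrome and so the same on both strands, was found no more than 100 bp from the summit in 5 of the 26 peaks, 19.2%, and in 18.4% of all IDR peaks. The 5 were the strongest peak of akt-1, the strongest of ist-1, the peak of daf-2 at 3405 bp and the peaks of daf-16 at 1839 bp upstream and 16273 bp downstream of its start. At daf-2 the motif lay outside the narrow peak interval and outside the bases printed. None of the 3 promoter-window peaks of akt-2, daf-16 and pptr-1 had it within 100 bp of the summit, and neither peak of pdk-1 did. The printed sequences of both pdk-1 peaks, the strongest pptr-1 peak and the stronger daf-2 peak carry GCGTCTC. Counting both strands, that 7-mer was found at this distance in 6 of the 26 peaks (23.1%) and in 15.6% of all IDR peaks. The 6 include peaks whose sequences it was chosen from, so these shares are not a like comparison. Its TCTC end can overlap GAGAGA, the GA repeat, which fills the daf-2 sequence at 3405 bp as TCTCTC. That repeat lay at 13 of the 26 peaks and 44.0% of all.

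GTAAACA, which like every motif here but the E-box was added after the data were seen, had the share furthest from that of the whole list among the motifs searched. On either strand and within the same distance, it was found in 5 of the 26 peaks (19.2%), against 4.96% of all IDR peaks. The peaks belonged to 4 genes: the akt-1 peaks at 2336 and 1697 bp upstream, the akt-2 peak at 1831 bp upstream, the daf-16 peak in its promoter window, and the ist-1 peak at 4519 bp, which had 2 copies. The matches at akt-1 lie beyond the bases printed or at a peak not printed. CTTATCA, often called the DAF-16 associated element, lay at 3 of the 26 (11.5%) and 12.5% of all. These are matches of letters in a window. Peaks of 1 gene are not independent of each other, and no test was made.

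**Figure D2:**
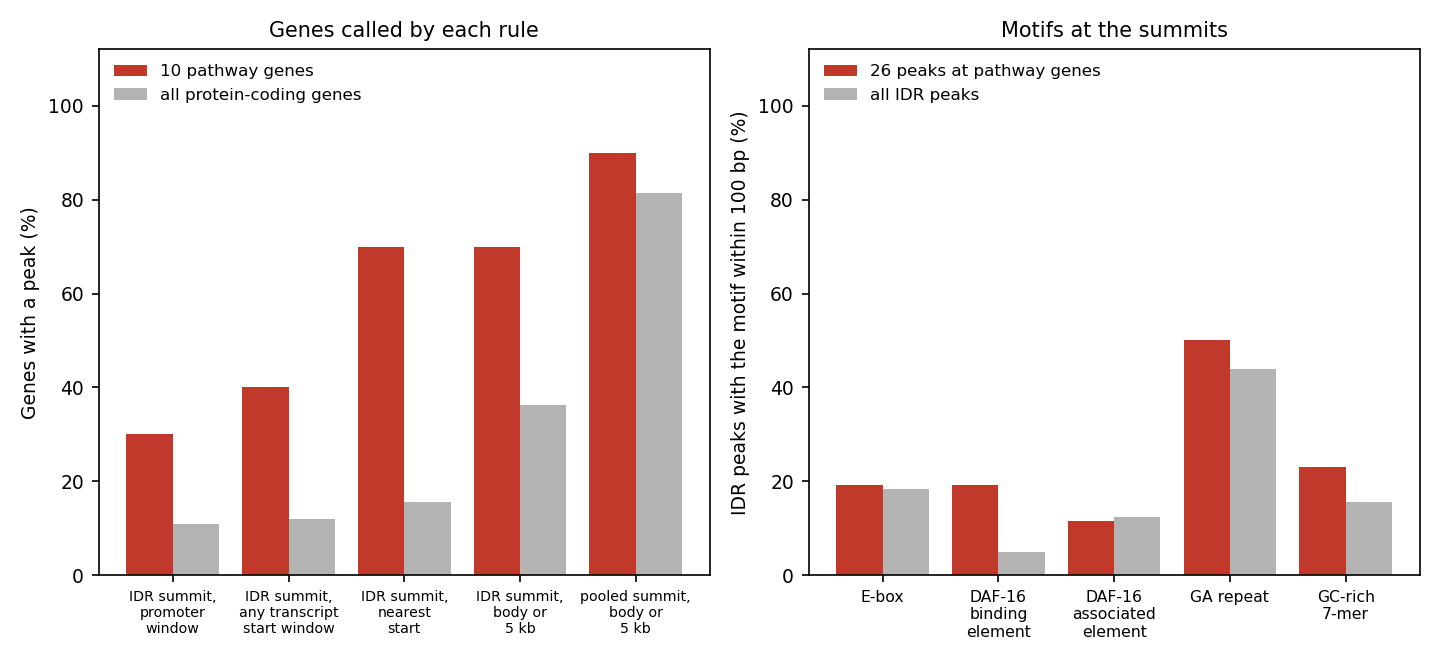
Left, the share of genes with a peak by 5 rules, for the 10 pathway genes (red) and all protein-coding genes (grey). Right, the share of IDR peaks with each motif within 100 bp of the summit, for the 26 peaks at pathway genes (red) and all IDR peaks (grey). All motifs drawn but the E-box were added after the data were seen, and GCGTCTC was chosen from sequences at these peaks. The E-box bars are of nearly equal height at 19.2 and 18.4%, and those of the DAF-16 binding element are at 19.2 and 4.96%.

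daf-16, the FOXO factor on which the pathway converges (WBGene00000912, chrI:10750498-10776703, plus strand), had 8 IDR summits spread over the stretch from 1673 to 19452 bp of its 26206 bp, and none in the rest of the gene body. Only 7 protein-coding genes, daf-16 included, had at least 11 IDR peaks in the gene body or within 5 kb. The others were lin-14, mak-1, mnk-1, T28B11.1, ZK470.2 and mdl-1, named after their values were seen. mdl-1, a gene of 1549 bp named in the strain field as the insertion's target, had 14. Of the 11 peaks at daf-16, 2 lay upstream, 8 in introns and 1 downstream. Their signals had a median of 101 and ran from 46.6 to 201.3, so that none reached the height of the leading peaks at akt-1, daf-2 or pptr-1. Among the intronic peaks, that at 1673 bp had replicate 1 and 2 values of 66.9 and 51.0, that at 6663 bp had 63.5 and 46.1, and that at 15310 bp had 50.7 and 45.3. The 3 weakest, at 2575, 7744 and 10145 bp, had pooled heights of 47.6, 46.6 and 49.9, close to the limit of the list. The upstream peak at 1839 bp gave 51.1 and 29.5 in replicates 1 and 2, and the downstream one 59.1 and 34.6.

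The daf-16 gene has several promoters, and the peaks differed among them. The outermost starts, which give the h, f, i, d and k transcripts, had the promoter-window peak at chrI:10749851-10750246. It stood 449 bp upstream and reached 142, where replicates 1 and 2 gave 79.0 and 68.1. The strongest peak of the gene, at chrI:10769752-10770147, was 19452 bp inside it and 1558 bp upstream of the start of the a transcript. It lay outside the window of that start, which held no IDR summit. The nearest annotated start, at 260 bp, was that of the noncoding RNA R13H8.5. The signal of this peak was 201.3, where replicates 1 and 2 gave 99.3 and 105.0. The starts of the b and c transcripts had no IDR summit within 2460 bp. A pooled peak 652 bp upstream of them had a signal of 34.1, short of the IDR list. The nearest IDR summit was 2154 bp from the start of the l and m transcripts and 3049 bp from that of the e transcript.

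**Figure D3:**
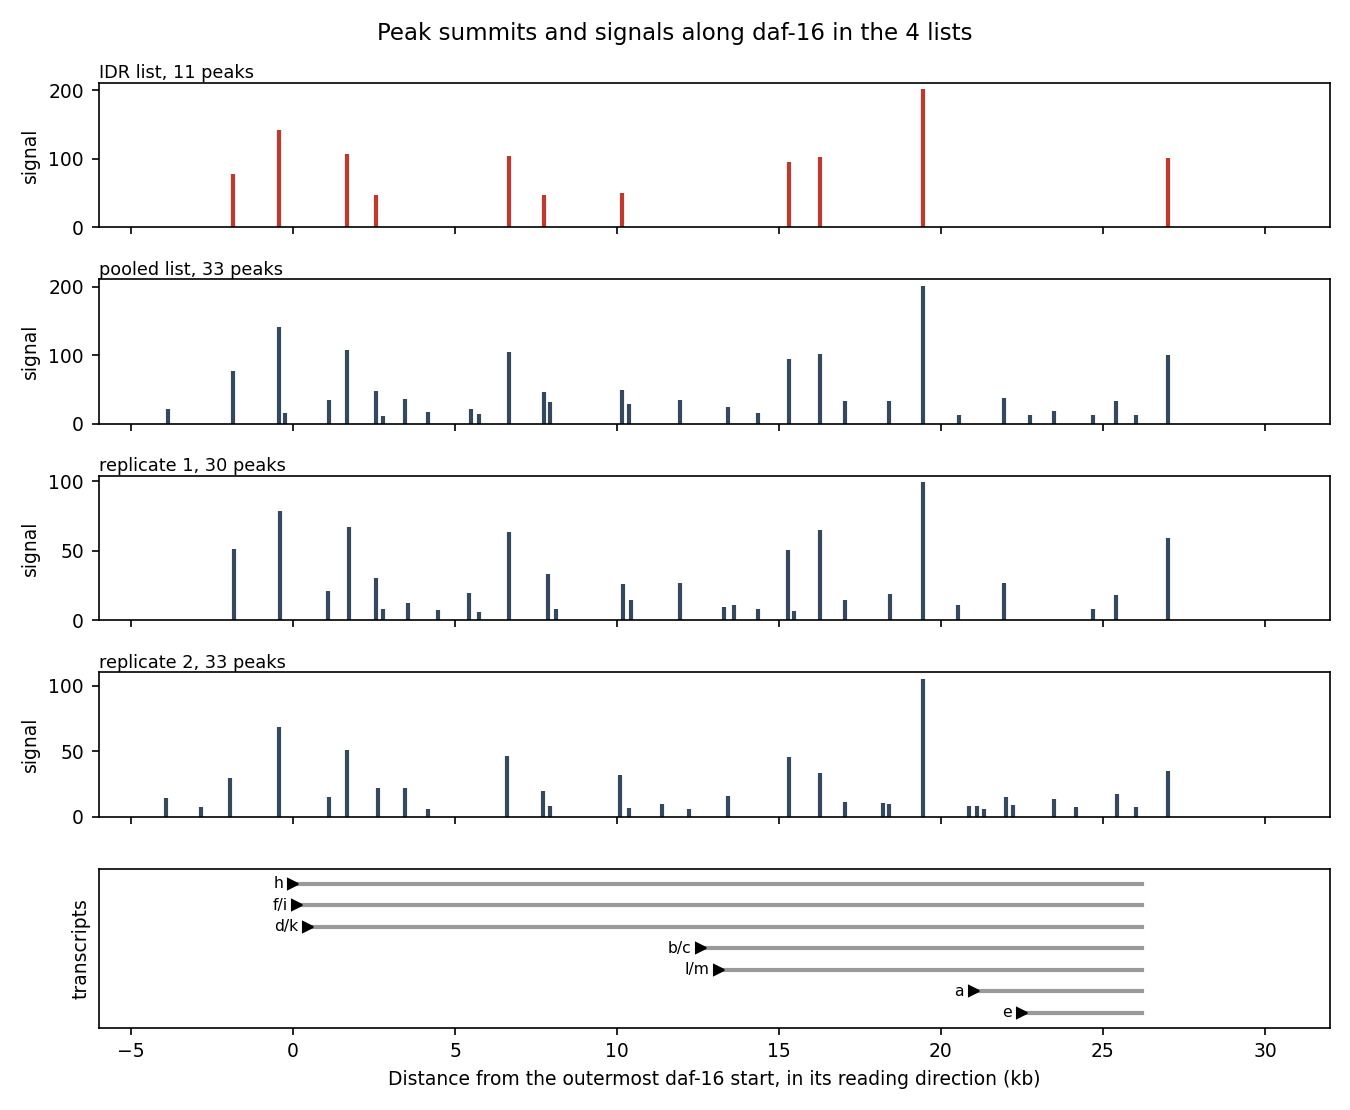
Vertical lines are peak summits along daf-16, with their signal in the caller's own unit on the vertical axes and the distance from the outermost start in kb on the horizontal axis. Panels show the IDR list, the pooled list, replicate 1 and replicate 2, and the lowest panel marks each coding transcript start by an arrowhead, with a line to the end of the gene. The tallest line, 19452 bp inside the gene, stands before the start of the a transcript in all 4 lists.

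Where the annotation is dense, the assignment of these peaks was open to choice. The peak 449 bp upstream of daf-16 fell in exons of the noncoding RNAs H36N01.1 and H36N01.4, 19 bp from the start of H36N01.4. The intronic daf-16 summits at 6663 and 2575 bp lay in exons of the noncoding RNAs R13H8.4 and H36N01.3, 42 and 139 bp from their starts. Measured from the outermost start, 3 daf-16 peaks were nearer to the start of gpx-8, a glutathione peroxidase family gene downstream, although 2 of these lie in daf-16 introns. Over the 26 peaks, the pathway gene was the nearest protein-coding start for 21. With noncoding gene starts counted too, 3 of the 10, pdk-1, akt-2 and pptr-1, were the nearest start to an IDR peak, against 11.1% of all protein-coding genes.

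age-1, the phosphoinositide 3-kinase (WBGene00000090, chrII:11519328-11527054), daf-18, which opposes it (WBGene00000913, chrIV:420011-425177), and sgk-1, the serum- and glucocorticoid-regulated kinase homolog (WBGene00004789, chrX:16254842-16262122), had no IDR peak, and they differed in how far they fell short. sgk-1 came close. A pooled peak 93 bp upstream of its start had a signal of 44.0, rank 4480, where the list ends at 45.6. Replicate 1 had 20.5 there, and replicate 2 had 19.2 at 24 bp upstream. daf-18 had 9 pooled peaks, none above 24.3. age-1 had no pooled peak at all, and the highest single-replicate values were 15.6 in replicate 1 and 7.04 in replicate 2, at different places. In all, 9 of the 10 genes had a pooled peak in the gene body or within 5 kb, a rule that 81.5% of protein-coding genes met.

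These 3 genes also had the shortest gaps to the next protein-coding gene upstream, 113 bp for age-1, 166 bp for sgk-1 and 990 bp for daf-18. The 7 genes with peaks had gaps from 1746 bp for daf-2 to 9651 bp for ist-1, so the ranges did not overlap. No such division was seen over all protein-coding genes: an IDR summit in the gene body or within 5 kb was found for 35.5% of those with a gap under 1000 bp and 37.0% of those with a longer one, a split chosen after the members' gaps were seen.

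All 26 peaks had an overlapping peak in both replicate lists, as did 99.7% of all IDR peaks. Since the IDR list was made by comparing these same replicates, that overlap follows from the selection and is no separate evidence. The replicates' summits were a median of 38 bp apart at the pathway peaks and 28 bp over all IDR peaks. The median log2 ratio of replicate 1 to replicate 2 signal was 0.21 (SD 0.42) over the 26 and 0.10 (SD 0.55) over all. The daf-16 peaks leaned to replicate 1, which was higher at 9 of the 11, with a median log2 ratio of 0.46. The largest was 0.96 for the intronic peak 16273 bp inside the gene, where replicates 1 and 2 gave 65.1 and 33.4. At the other genes the median was 0.12, and replicate 1 was higher at 9 of 15. Of the 4279 IDR peaks with a value in both replicates, replicate 1 was higher at 58.4%. With 2 replicates of 1 group no test was made of these ratios.

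**Figure D4:**
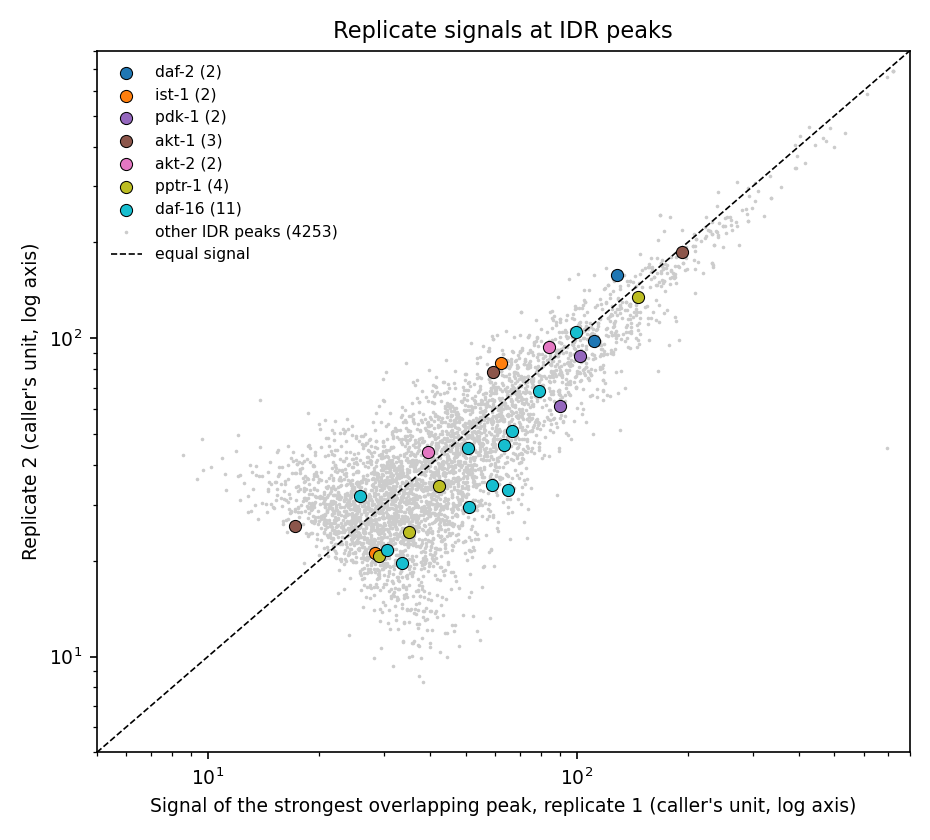
Each point is an IDR peak, with the signal of the strongest overlapping peak of replicate 1 on the horizontal axis and of replicate 2 on the vertical axis, both logarithmic and in the caller's own unit. Coloured points are the 26 pathway peaks by gene, grey points are the others, and the dashed line marks equal signals. Of the coloured points the akt-1 peak at 193 and 186 stands highest, and most daf-16 points lie below the line.

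Beyond the 10 genes, other parts of the pathway were looked up in lists of ligands, regulators and targets. None of 9 insulin-like peptide genes had an IDR summit in its promoter window. The upper exact 95% limit of 33.6% is description only, for a chosen list. Of the 9, 2 had a summit in the gene body or within 5 kb (22.2%, against 36.3% of all protein-coding genes). They were ins-7, with a highest signal of 564, and ins-11, with 62.9. Of 23 other signalling genes and DAF-16 regulators, 5 had an IDR summit in the window (21.7%), beside the 10.9% of all protein-coding genes given above. For 11 (47.8%) one lay in the gene body or within 5 kb. In the gene body or within 5 kb, the highest signal was 613 at aak-2, outside its window. In the window, the highest were both 14-3-3 genes, whose proteins hold DAF-16 in the cytoplasm. par-5 had a signal of 242, where replicates 1 and 2 gave 140.0 and 105, and ftt-2 had 98.1, where replicates 1 and 2 gave 62.8 and 56.9. The par-5 summit also lay in the window of M117.3, the akir-1 summit in that of gclm-1 and, among the targets below, the icl-1 summit in that of srh-2. smk-1, a cofactor of DAF-16, had 79.7, daf-15, the Raptor homolog of the TOR pathway, had 58.0, and akir-1, the akirin homolog, had 55.4. aap-1, the adaptor subunit that binds AGE-1, had no IDR peak within 5 kb.

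Of 20 genes known as targets of DAF-16, 4 had a summit in the window (20%), beside the same 10.9%, and 8 (40%) had one in the gene body or within 5 kb, near the 36.3% of all. The peak at mdl-1, among the 4 and named in the strain field as the insertion's target, had 1353 and was second in the whole list. Any part of the inserted copy in that signal was not tested. icl-1, of the glyoxylate cycle, had 114.9 in its window, where replicates 1 and 2 gave 64.9 and 48.8. Its highest signal in the gene body or within 5 kb was 469. The metallothionein gene mtl-1 had 71.3, and the aquaporin gene aqp-1 had 62.6, where replicates 1 and 2 gave 18.8 and 46.2. The superoxide dismutase gene sod-3, a widely used DAF-16 reporter, had no IDR peak in the gene body or within 5 kb. ins-7, ins-11, aak-2, aap-1 and sod-3 were named after their values were seen.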

How the data were processed

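The samples were 2 biological replicates of 1 group, so no groups were compared. The 4 ce11 peak lists were used, and the 4 on ce10 were not, since positions were not converted. Per the deposited file descriptions, the authors made a list per replicate, a pooled list and, from these, the IDR list. The aligner, the peak caller and the IDR limit were not given in the sources used here. Deposited signal (column 7) is the caller's own and differs in scale between pooled and single lists. The deposited −log10 q (column 9) was between 3.07 and 3.80 at IDR peaks and entered no comparison. All 4293 IDR peaks stand in the pooled list, which has no other peak as high.

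Summits were compared 1-based with Ensembl WBcel235 genes. RefSeq symbols and sequence are of the same assembly, and all 10 genes overlap between the annotations. A replicate's value is that of the strongest peak overlapping by at least 1 bp. Genes of the other lists were named if a summit lay in the promoter window, up to 5 per list. The members and lists were chosen with earlier results of these data known. Functions were tested on simulated data. Tools were matplotlib 3.10.9, scipy 1.17.1, pandas 2.3.3 and numpy 2.4.6 under Python 3.11.15. Alternatives covered window, flank, transcript starts, assignment, threshold, motif window, overlap and each replicate alone.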

Additional observations from a re-analysis of the deposited data

How the results depend on the processing

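The count of 3 genes with a summit in the promoter window became 5 (pdk-1 and akt-1 added) with 2000 bp upstream, where 14.7% of all protein-coding genes had one, and 8 with all pooled peaks, where 38.9% did. It stayed between 2 and 4 with 500 bp upstream (without akt-2), any transcript start, peak midpoints and peaks at or above the median signal (without pptr-1), and was 4 without replicate 1 (akt-1 added) and 3 without replicate 2. The 7 genes given a peak by nearest start became 3 with noncoding starts included (11.1% of all) and 5 within 2000 bp (2461 of all 19973), a limit chosen after seeing the data. They were 7 both without replicate 1 (15.5% of all) and without replicate 2 (15.4% of all). The 7 genes with a summit in the body or within 5 kb became 9 with a flank of 10 kb, where 52.0% of all genes had one. With the gene body alone they became 4, against 4.99% of all protein-coding genes, of which 77.5% were shorter than akt-1, the shortest member. With the 5 kb flank they stayed 7 both without replicate 1 (35.8% of all) and without replicate 2 (35.4% of all). The 26 peaks became 24 without replicate 1 and 31 without replicate 2. In all counts without a replicate, the strongest peaks of the other replicate's list took the place of the IDR list. The E-box lay at 3 of the 26 peaks within 50 bp of the summit (13.2% of all IDR peaks). CANNTG lay at 19 of 26 (67.8% of all). Of the motifs added after seeing the data, CTTATCA lay at 3, GAGAGA at 13, GTAAACA at 5 and GCGTCTC at 6. Other lists gave 0 of 9 ligands and 5 of 23 regulators with either replicate left out, and 6 of 20 targets without replicate 1 and 4 of 20 without replicate 2. The shares over all protein-coding genes were 10.7% without replicate 1 and 10.6% without replicate 2. The cause of these changes was not tested, beyond the wider or narrower rules themselves. No paired analysis was possible because there is 1 group. Depth is unknown, so the absence of a peak at age-1, daf-18 and sgk-1 is that of a call at the authors' threshold.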
